A study of Mus musculus with 12 samples.

Results

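The transcripts of the synaptic vesicle and of the machinery that docks, fuses and recovers it were followed as 35 mouse genes, chosen by gene name. All 35 were listed in each of the 4 deposited count tables, among 14360 genes common to the tables and 17986 genes listed in any of them, and all 35 passed the filter on low counts. By the known place of the protein, 11 encode proteins that span the membrane, 3 encode tail-anchored proteins and 21 encode cytosolic or peripheral proteins. The RNA came from the hippocampus of C57BL6/J mice, in 12 libraries of ribosomal-RNA-depleted total RNA. A synapse fraction gave 1 library of arm C and 1 of arm L on each of days 1, 6 and 20. Whole homogenate gave 3 libraries of each arm, all on day 6. Per the file headers C is the control arm and L the arm named learned or training. The synapse columns of days 1 and 20 are lettered C and T, and T was taken as L. The sources used here do not give how the fraction was made, what the animals went through or their age. They also leave out whether each library stands for its own animals, so p-values measure the spread between these libraries, which may be technical. Each synapse day was deposited as a table of its own. That of day 6 listed 14552 genes, and those of days 1 and 20 listed 17130 each. Genes with a count above 0 numbered 13546 (C) and 13748 (L) in the day 6 synapse libraries and 15385 to 16157 in all other libraries. The reason was not tested. Within the synapse fraction day 6 alone has columns carrying the word Input, which the homogenate columns carry too. Day, table and naming therefore cannot be told apart there, and a difference between fractions can be matched by day on day 6 only.

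In a nerve terminal, transporters load glutamate into vesicles, and the vesicle protein Vamp2 pairs with Stx1a and Snap25 of the cell surface to form the SNARE complex that fuses the membranes. Synaptotagmins sense calcium, complexins hold and help the SNARE complex, scaffolds of the active zone hold vesicles at the release site, Nsf takes used SNARE complexes apart, and dynamin, its adaptors and synaptojanin recover the membrane. The proteins reach the membrane in different ways. Ribosomes that make membrane-spanning proteins are usually brought to the endoplasmic reticulum as soon as a hydrophobic stretch leaves the ribosome. A tail-anchored protein has its only hydrophobic stretch at its end and is inserted after translation, and cytosolic proteins are made on ribosomes free in the cytosol.

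The coding sequences below, except those of Sv2b and Dnajc5, show that difference. All are printed because the 35 genes divided along it on day 6. They were read from the GENCODE M21 transcripts (GRCm38, the build called mm10), 5′ to 3′ on the strand of the gene. Capitals mark 19 codons. For Syt1, Syt11, Sv2b, Vamp2 and Stx1a these are the window with the highest mean Kyte-Doolittle hydropathy, and for Snap25 and Dnajc5 the window with the most cysteine codons, the residues to which lipid is attached in these proteins.
Syt1: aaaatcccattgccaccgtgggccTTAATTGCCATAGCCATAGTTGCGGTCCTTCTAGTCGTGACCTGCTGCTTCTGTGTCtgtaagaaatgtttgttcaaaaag
Syt11: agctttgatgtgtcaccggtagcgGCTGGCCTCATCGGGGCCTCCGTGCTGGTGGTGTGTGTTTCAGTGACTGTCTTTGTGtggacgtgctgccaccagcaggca
Sv2b: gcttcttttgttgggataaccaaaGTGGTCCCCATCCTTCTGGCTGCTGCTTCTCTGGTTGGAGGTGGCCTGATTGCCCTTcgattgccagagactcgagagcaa
Vamp2: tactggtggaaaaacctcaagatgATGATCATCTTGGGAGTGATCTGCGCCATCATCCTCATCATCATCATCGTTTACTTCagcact
Stx1a: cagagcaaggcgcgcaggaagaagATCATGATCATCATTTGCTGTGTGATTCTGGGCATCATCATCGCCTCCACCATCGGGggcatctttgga
Snap25: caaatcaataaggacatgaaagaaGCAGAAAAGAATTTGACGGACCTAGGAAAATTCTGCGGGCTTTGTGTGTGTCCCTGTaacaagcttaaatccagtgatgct
Dnajc5: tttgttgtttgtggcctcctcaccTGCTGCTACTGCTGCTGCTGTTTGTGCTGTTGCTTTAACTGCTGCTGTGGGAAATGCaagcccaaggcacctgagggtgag
In Syt1 (ENSMUSG00000035864, chr10:108497650-109010982, minus strand), a calcium sensor of fast release, the window starts at codon 60 of 421 and is followed by 343 further codons. In Syt11 (ENSMUSG00000068923, chr3:88744700-88775164, minus strand), a synaptotagmin that does not bind calcium, it starts at codon 18 of 430. Sv2b (ENSMUSG00000053025, chr7:75114894-75309262, minus strand), a vesicle glycoprotein with many membrane segments, has its highest window at codon 654 of 683. In the tail-anchored Vamp2 (ENSMUSG00000020894, chr11:69088490-69092384, plus strand) only 2 codons follow the window, and in Stx1a (ENSMUSG00000007207, chr5:135023482-135051100, plus strand) only 4. Snap25 (ENSMUSG00000027273, chr2:136713453-136782428, plus strand) has 4 cysteine codons in its window and a highest hydropathy of 0.568. Dnajc5 (ENSMUSG00000000826, chr2:181520485-181555133, plus strand), the cysteine string protein that acts as a chaperone on vesicles, has 13 cysteine codons in its window. Its highest hydropathy is 2.45, within the range of the membrane-spanning members (1.99 to 3.21).

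Library totals ran from 9100192 to 15950350 counts, so the floor of 3 counts that an observed 0 allows stood at 0.188 to 0.330 CPM, the usual count scaled by depth. Without molecular identifiers, that floor and all intervals speak for counting error alone. Levels are given as scaled CPM, in which the library total is first multiplied by its TMM factor, a factor that evens out libraries whose counts are spread differently over genes. These factors were 0.656 and 0.713 for the day 6 synapse libraries, 0.973 to 1.00 for the other synapse libraries and 1.10 to 1.18 for the homogenates. With library totals alone, the median difference of all genes on day 6 moved from -0.13 to -0.88 on the log2 scale, so every difference between fractions is relative to that median. Differences are log2 with the standard error (SE), and called means an adjusted p under 0.05 in edgeR's quasi-likelihood test with Benjamini-Hochberg adjustment over all genes. The label hippocampus could be set beside Slc17a7, the vesicular glutamate transporter of hippocampal principal cells, which had 513 to 579 scaled CPM in the homogenates, and Slc17a6, its relative of thalamus and midbrain, which had 14.0 to 31.2. For the label synapse, 8 dendritic transcripts summed to 10240 to 13060 scaled CPM in the 6 synapse libraries and 7268 to 9059 in the homogenates, with 4 of the 8 called higher on day 6 and 6 higher and 1 lower on day 1. They did not move as one: Shank1 had 985 to 1997 against 515 to 709, while Arc had 102 and 104 on day 6, inside its homogenate range of 79.0 to 184. Transcripts of liver stood out in 3 libraries. A list of 6 summed to 1966 scaled CPM in the homogenate L1 and to 264 (C) and 48.5 (L) in the day 6 synapse libraries, and to at most 0.476 in the other 9.

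In the homogenates, levels per kilobase of exonic length (scaled CPM per kb, mean ± SD, n = 6) spread widely over the 35 genes. Snap25 was highest at 224 ± 26.4, followed by Syt1 at 182 ± 5.85, Cplx2 at 171 ± 15.1, Vamp2 at 152 ± 11.1 and Dnm1 at 144 ± 7.72. From Syt1 to Dnm1, neighbours in that order lay within the sum of their SDs. The lowest were Vamp1 at 7.39 ± 0.362, Dnajc5 at 5.27 ± 0.615, Slc17a6 at 4.83 ± 1.25 and Doc2a, a calcium-binding factor of spontaneous release, at 2.37 ± 0.659. The last of these rested on few counts and was called in none of the main fits below. With library totals in place of TMM it was called lower on day 6.

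The first question was how the synapse fraction differed from the homogenate on day 6. All 11 membrane-spanning members were higher in the synapse fraction, from 1.96-fold for Syt7 to 7.60-fold for Syp. Of the 21 cytosolic or peripheral members 15 were lower, 2 (Rims1 and Rims2, whose sign turned with library totals) were higher and 4 (Cplx2, Doc2a, Rph3a and Pclo) were not called. Of the 3 tail-anchored members Vamp1 was lower and Vamp2 and Stx1a were not called. With library totals in place of TMM the 6 members not called were called lower. Over all 13766 genes tested 28% were called higher and 31.3% lower, with a median of -0.13. In these bulk libraries, fewer cells or fragments of a kind and less RNA in each cannot be told apart.

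**Figure D1:**
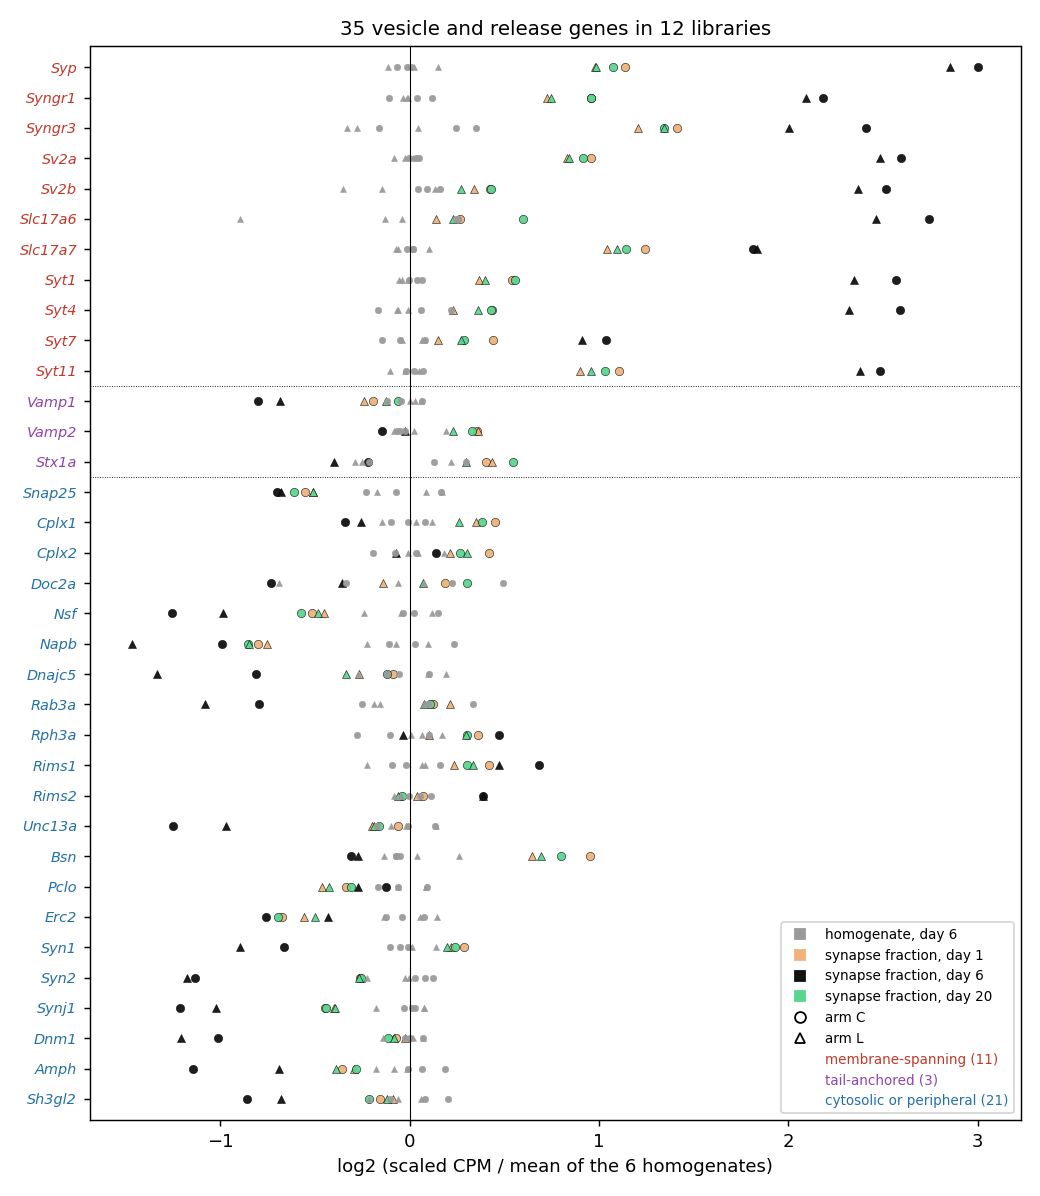
Level of each of the 35 genes in each of the 12 libraries, as the log2 ratio of scaled CPM to the mean of the 6 homogenates (x axis), with 1 row per gene coloured by protein class, circles for arm C and triangles for arm L. The day 6 synapse libraries (black) lie far to the right for the 11 membrane-spanning members, while those of days 1 and 20 lie between them and the homogenates (grey) in 10 of these.

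Among the vesicle membrane proteins, synaptophysin (Syp), the most used marker protein of the vesicle, had 4987 (C) and 4493 (L) scaled CPM in the day 6 synapse libraries. Its 6 homogenate values ran from 575 to 690 with a median of 620. Both synapse values lay far above the highest homogenate, and the difference was 2.93 ± 0.07 (edgeR adjusted p = 3.43e-12). Sv2a, the vesicle protein to which levetiracetam binds, had 1698 and 1573 against 266 to 291 (median 283), a difference of 2.54 ± 0.06. Its relative Sv2b had 3470 and 3140 against 477 to 678 (median 637), a difference of 2.44 ± 0.09. Syngr1 and Syngr3, synaptogyrins of the same family as synaptophysin, differed by 2.14 ± 0.07 and 2.22 ± 0.13. No synapse value of these 5 genes overlapped the homogenates.

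Both glutamate transporters were higher. Slc17a7 had 1894 and 1926 scaled CPM against 513 to 579 in the homogenates (median 539), a difference of 1.82 ± 0.07. The much scarcer Slc17a6 had 175 and 144 against 14.0 to 31.2 (median 28.1), a difference of 2.63 ± 0.16. The groups did not overlap for either gene. Slc17a6 made up 8.45% and 6.96% of the counts of the pair in the day 6 synapse libraries and 2.36% to 5.51% in the homogenates.

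The 4 synaptotagmins split into a group of 3 and Syt7. Syt1 had 8986 and 7730 scaled CPM in the day 6 synapse libraries against 1457 to 1588 in the homogenates (median 1510), a difference of 2.46 ± 0.06 (edgeR adjusted p = 2.62e-12). Syt11 had 3253 and 3026 against 541 to 610 (median 583), a difference of 2.43 ± 0.06. Syt4, a synaptotagmin of postsynaptic and dense-core vesicle traffic, had 1343 and 1113 against 199 to 260 (median 218), a difference of 2.45 ± 0.08. These 3 differences lay within 1 SE of each other. Syt7, the slow calcium sensor of asynchronous release and facilitation, had 650 and 597 against 287 to 335 (median 321) and differed by 0.97 ± 0.09, the smallest value among the 11. It did not overlap the homogenates either.

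None of 4 fusion SNAREs was called higher. Vamp2 had 523 and 570 scaled CPM in the day 6 synapse libraries against 548 to 661 in the homogenates (median 564), which overlapped. Its difference was -0.09 ± 0.08 (edgeR adjusted p = 0.382). Vamp1, the other neuronal synaptobrevin, had 43.2 and 46.7 against 69.1 to 78.6 (median 75.9), with no overlap and a difference of -0.74 ± 0.10 (adjusted p = 1.34e-05). Stx1a had 26.4 and 23.3 against 25.1 to 37.7 (median 30.02), a difference of -0.31 ± 0.17 that was not called. Snap25, which lipid holds to the membrane, had 936 and 950 against 1297 to 1708 (median 1531) and fell by 0.69 ± 0.11 on the log2 scale. Both of its synapse values lay below every homogenate.

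Among the factors that act on the SNARE complex, Cplx1 had 165 and 174 scaled CPM against 188 to 226 (median 210), a difference of -0.30 ± 0.09 with no overlap. Its relative Cplx2 had 929 and 803 against 737 to 958 (median 850), which overlapped, and differed by 0.04 ± 0.10. Doc2a had 3.996 and 5.17 against 4.11 to 9.34 and was not called. The 3 recycling factors were all lower. Nsf, the ATPase that takes SNARE complexes apart, had 433 and 521 against 873 to 1144 (median 1029) and fell by 1.12 ± 0.11. Napb, the adaptor that brings Nsf to them, had 198 and 142 against 336 to 462 (median 388) and fell by 1.22 ± 0.13, the lowest value of the 35. Dnajc5 had 20.9 and 14.5 against 30.3 to 41.9 (median 37.2) and fell by 1.05 ± 0.17. None of the 3 overlapped the homogenates.

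The Rab3 branch and the active zone were mixed. Rab3a, the small GTPase of the vesicle, had 104 and 84.9 scaled CPM against 151 to 227 (median 175) and fell by 0.94 ± 0.14, while its effector Rph3a had 288 and 203 against 171 to 233 (median 213) and was not called (0.24 ± 0.14). Rims1, a scaffold that ties Rab3 to calcium channels, had 477 and 413 against 255 to 332 (median 302) and differed by 0.58 ± 0.10. Rims2 had 192 and 192 against 139 to 159 (median 145) and differed by 0.39 ± 0.07. With library totals in place of TMM, Rims1 turned to -0.16 (adjusted p = 0.0918) and Rims2 to -0.35 (adjusted p = 0.00186), so their direction rests on the scaling. Unc13a, the priming factor that opens syntaxin, had 158 and 192 against 333 to 415 (median 373) and fell by 1.11 ± 0.11. The giant scaffold Bsn differed by -0.29 ± 0.11, its relative Pclo by -0.20 ± 0.09 without being called, and Erc2 by -0.59 ± 0.10.

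The synapsins, which tether vesicles in the reserve pool, and the endocytic genes were lower without exception among the 6. Syn1 had 209 and 178 scaled CPM against 307 to 364 (median 330) and fell by 0.78 ± 0.09. Syn2 had 248 and 241 against 465 to 592 (median 548) and fell by 1.16 ± 0.08. Dnm1, the dynamin that cuts vesicles from the membrane, had 375 and 328 against 685 to 796 (median 761) and fell by 1.11 ± 0.08. Synj1, a phosphatase that takes part in removing the clathrin coat, fell by 1.12 ± 0.09. Amph, an adaptor that brings dynamin to the neck of the bud, fell by 0.90 ± 0.12. Sh3gl2, the endophilin that bends the membrane, fell by 0.77 ± 0.11. No synapse value of these 6 genes overlapped the homogenates.

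Counted without a test, both day 6 synapse libraries lay above all 6 homogenates in 13 members and below them in 16, where 27.5% and 30.7% of all genes did so. By edgeR's test 13 members were higher and 16 lower. Without the C library, the one of this pair with more liver transcripts, the counts were 13 and 14, without the L library 14 and 15, and without the homogenate L1 13 and 16.

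By class, the median difference on day 6 was 2.44 for the membrane-spanning members, -0.31 for the tail-anchored and -0.77 for the cytosolic. The gap of 3.21 between the membrane-spanning and the cytosolic medians does not depend on a scaling factor, which cancels in it. As a share of all counts, the 11 membrane-spanning members held 1.82% and 1.77% of the day 6 synapse libraries and 0.544% to 0.606% of the homogenates. The 21 cytosolic members held 0.457% and 0.479% against 1.08% to 1.23%. There were thus 3.98 and 3.70 membrane-spanning counts for each cytosolic count in the day 6 synapse libraries, and 0.468 to 0.538 in the homogenates. All 35 together held 2.31% and 2.30% against 1.70% to 1.896%.

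**Figure D2:**
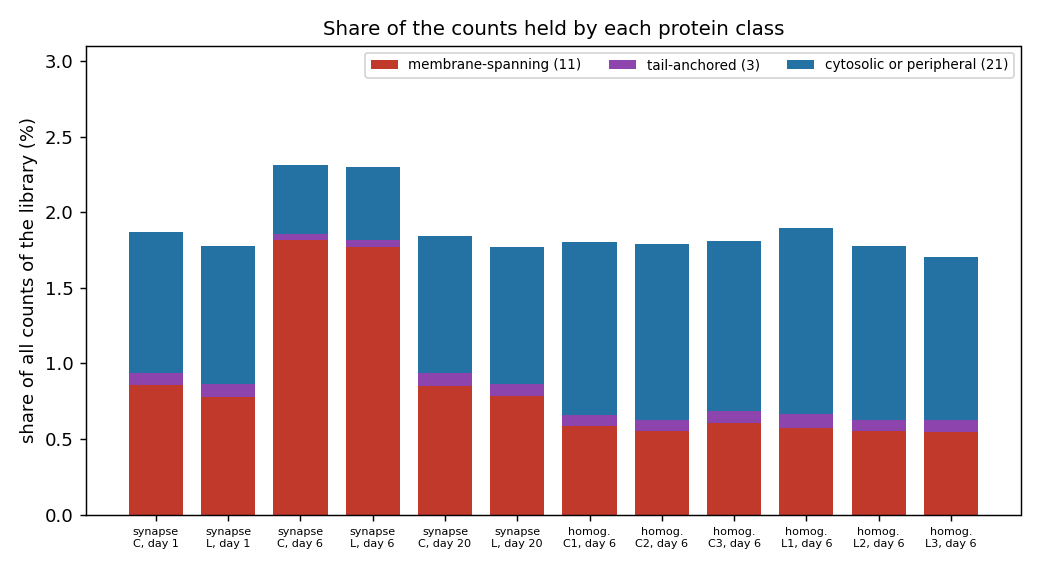
Share of all counts in each library (y axis, %) held by the 11 membrane-spanning, 3 tail-anchored and 21 cytosolic or peripheral members (stacked bars), in the 6 synapse libraries and the 6 homogenates (C1 to C3 and L1 to L3). The membrane-spanning share stands at 1.82% and 1.77% in the day 6 synapse libraries and at 0.778% to 0.855% in those of days 1 and 20.

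The classes were also read from the coding sequences, as a window of 19 codons with a mean hydropathy of at least 1.6. All 11 membrane-spanning members had such a window before their last 30 codons, and the 3 tail-anchored members had it within the last 30 only. Of the 21 cytosolic members, 19 had none and 2 had one. These 2 exceptions were Dnajc5, whose window of 2.45 lies over its cysteine string, and Synj1 at 1.74. Both were lower in the day 6 synapse libraries, like the other cytosolic members called lower. Whether the height of the window went with the difference within a class was not tested. Syp had the lowest of the 11 (1.99) and the largest difference, and Vamp2 had the highest of all 35 (3.36) and no called difference. The division was not particular to vesicle genes. Over all genes tested, the 4724 with a window before the last 30 codons had a median of 1.09 and 2685 of them were higher, the 236 with a window at the end only had a median of -0.07, and the 8557 with none had a median of -0.38. The median of the 11 stood above that of all genes with such a window, and that comparison was not tested.

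**Figure D3:**
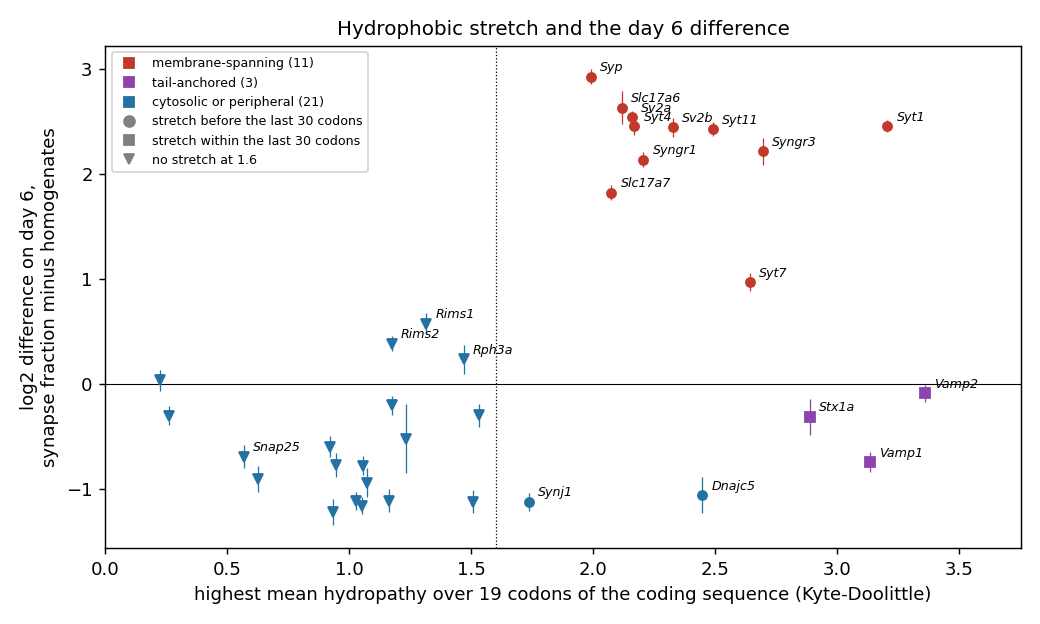
Highest mean hydropathy over 19 codons of the coding sequence (x axis, Kyte-Doolittle scale) against the log2 difference between the day 6 synapse libraries and the homogenates (y axis, bars are SE) for the 35 genes, coloured by protein class, with the marker giving the place of the window. The 11 membrane-spanning members sit at the upper right, and the 3 tail-anchored members and Dnajc5 sit below 0 within the same range of hydropathy or above it. Synj1 sits below 0 at 1.74, under the lowest of the 11 (1.99).

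A list of 94 other genes of the vesicle cycle showed the same division, with 89 of them tested. Of 23 genes put in the membrane-spanning class 21 were higher on day 6, with a median of 1.99, and Syngr2 and Syt17 were not called. The classes of this list were not checked gene by gene against the coding sequences. The highest were Atp6ap2 at 2.74 ± 0.08 and Atp6ap1 at 2.59 ± 0.08, both accessory subunits of the vesicle proton pump, and Syt2 at 2.49 ± 0.12. Of 58 cytosolic genes 44 were lower and 3 higher, with a median of -0.66. The lowest were Atp6v1a at -1.39 ± 0.09, Sh3gl1 at -1.31 ± 0.18 and Atp6v1b2 at -1.29 ± 0.15. The 3 that were higher, named after their values were seen, were Unc13c at 1.63 ± 0.11, Eps15 at 0.35 ± 0.12 and Itsn1 at 0.19 ± 0.08. The proton pump itself was divided, since 7 of the 8 subunits of its soluble part were lower. Of 8 tail-anchored genes Stx4a was higher, Vamp4 and Stx16 were lower and 5 were not called, with a median of 0.03.

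Transcripts of other cells moved with the fraction as well. The summed level of 8 astrocyte markers was 28380 to 33310 scaled CPM in the day 6 synapse libraries, 16090 to 16710 on days 1 and 20 and 7472 to 9432 in the homogenates, and 8 of 8 were called higher on day 6. That of 8 microglial markers was 1241 to 1495, 655 to 766 and 188 to 244 in the same order, with 7 of 7 tested higher. For 8 excitatory neuron markers it was 5110 to 5376 on day 6 and 2958 to 3991 in the homogenates, with 3 higher and 4 lower. The 8 oligodendrocyte markers summed to 4526 to 5792 on day 6, 10260 to 12260 on days 1 and 20 and 1822 to 3066 in the homogenates, with 8 of 8 higher on day 1 and 6 higher and 1 lower on day 6. Endothelial markers went the other way on day 6, with 107 to 151 for the sum of 8 against 254 to 295 in the homogenates and 4 lower of 7 tested, while on days 1 and 20 they summed to 323 to 471. The 8 choroid plexus markers summed to 10210 to 13180 on day 6, 8677 to 10360 on days 1 and 20 and 2067 to 5143 in the homogenates, with 6 higher and 1 lower on day 6. For 8 markers of the meninges the sums were 1134 to 1286, 692 to 990 and 162 to 1050, with 6 higher. Interneuron markers (4 higher and 3 lower of 8) and those of thalamus and habenula (3 higher and 1 lower of 9) went both ways. The 5 pituitary markers summed to 13.48 to 18.02 on day 6 against 1.39 to 68.2 in the homogenates. They summed to 150 (C) and 72.3 (L) on day 1 and to 53.6 (C) and 586 (L) on day 20. Among the defining markers, Tek of endothelium was at 0 in the C library of day 6. Of the 3 each for astrocytes, microglia, excitatory neurons and oligodendrocytes, Csf1r of microglia was not listed in the day 6 synapse table, where it entered as 0. It was at 0 in the homogenate L2 too, and elsewhere at 0.106 to 0.617 scaled CPM, near the floor, so it was hardly measured in any library. The other 11 markers were above 0 in every library. Many of these markers encode membrane proteins too, and their part in the members' differences was not tested.

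The synapse libraries of days 1 and 20 were set against the same homogenates, with the limit that day and fraction cannot be told apart. Again the membrane-spanning members were higher, by less than on day 6: 10 of 11 were called on each day and Slc17a6 was not. Over all genes 20.7% were higher and 16% lower on day 1, and 19.9% and 15.5% on day 20. The largest differences on days 1 and 20 were 1.32 ± 0.13 and 1.36 ± 0.13 for Syngr3, 1.14 ± 0.07 and 1.12 ± 0.07 for Slc17a7, 1.06 ± 0.08 and 1.03 ± 0.08 for Syp, and 1.00 ± 0.07 and 0.99 ± 0.07 for Syt11. Slc17a7 had 1278 (C) and 1108 (L) scaled CPM on day 1 and 1190 and 1152 on day 20, all above the highest homogenate of 579. Syt1 had 2203 and 1952 on day 1 and 2234 and 1995 on day 20 against 1457 to 1588, also without overlap, and differed by 0.45 ± 0.06 and 0.48 ± 0.06.

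The tail-anchored and cytosolic members went both ways on these days. Vamp2, with 741, 743, 727 and 680 scaled CPM in the 4 libraries against 548 to 661, was higher by 0.36 ± 0.08 and 0.28 ± 0.08, and Vamp1 and Stx1a were not called. On day 1, 5 cytosolic members were higher (Bsn, Cplx1, Cplx2, Rims1 and Syn1) and 8 lower (Snap25, Nsf, Napb, Pclo, Erc2, Syn2, Synj1 and Amph). On day 20 Syn1 missed the threshold and the other 12 were called in the same directions. Bsn led with 1235 (C) and 997 (L) on day 1 and 1111 and 1029 on day 20 against 580 to 762, a difference of 0.81 ± 0.10 and 0.75 ± 0.10. Napb was lowest, with 218 to 234 in the 4 libraries against 336 to 462, a difference of -0.77 ± 0.12 and -0.85 ± 0.12. These groups did not overlap. All 4 synapse libraries of days 1 and 20 lay above the homogenates in 17 members and below them in 8, where 23.9% and 21.7% of all genes did so. Among the other vesicle genes on day 1, 13 of the 23 put in the membrane-spanning class were higher and none lower by edgeR's test. At an unadjusted p under 0.05 stood 15 of the 23. Of the 58 cytosolic genes 8 were called higher and 23 lower. The highest were Slc32a1, the vesicular transporter of GABA, at 1.88 ± 0.17 and the synaptotagmin Syt5 at 1.46 ± 0.12, and the lowest was Unc13b, a relative of Unc13a, at -0.97 ± 0.23.

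The calls of days 1 and 20 were less firm than those of day 6. With either synapse library of day 1 or of day 20 left out, only 1 library remained on that day and fewer members were called. Fewer of all genes tested were called there too, so that drop was not particular to the members. With library totals in place of TMM, Sv2b, Syt4, Syt7, Vamp2, Cplx1, Cplx2 and Rims1 were no longer called on either day, nor Syn1 on day 1, without a change of sign. The same scaling changed the split over all genes from 2853 higher and 2201 lower to 1981 and 3703 on day 1, from 3856 and 4311 to 2393 and 7662 on day 6, and from 2741 and 2134 to 1968 and 3627 on day 20. The members' own split went from 16 higher and 8 lower to 8 and 13 on day 1, from 13 and 16 to 11 and 23 on day 6, and from 15 and 8 to 8 and 14 on day 20. The 11 membrane-spanning members were still all called higher on day 6 with it.

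**Figure D4:**
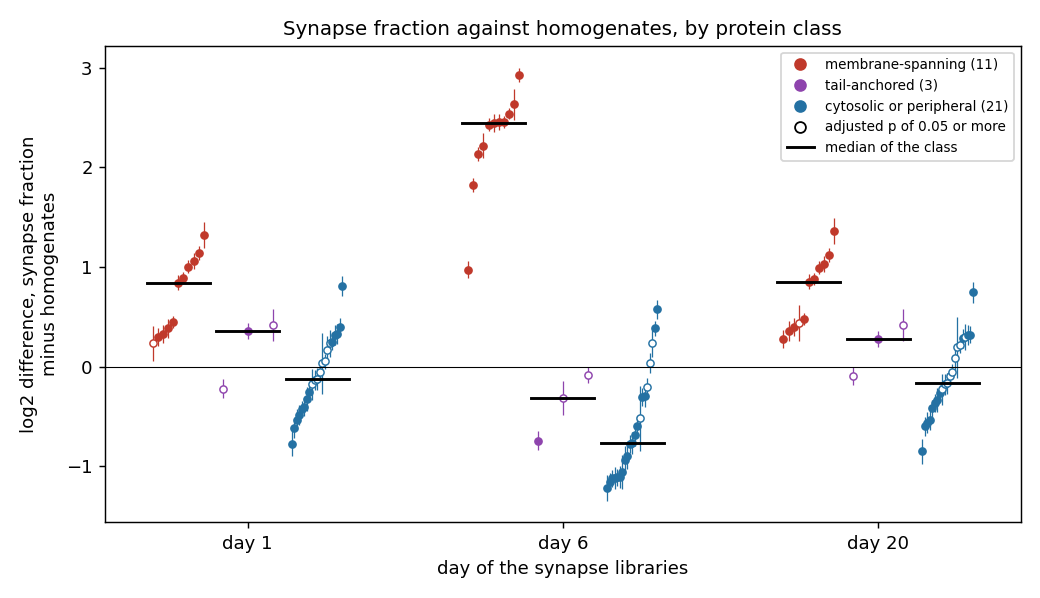
Log2 difference between the synapse fraction and the homogenates (y axis, bars are SE) for the 35 genes on days 1, 6 and 20 (x axis), grouped and coloured by protein class, with open circles for adjusted p of 0.05 or more and a black line at the class median. The median of the 11 membrane-spanning members was 0.84 on day 1, 2.44 on day 6 and 0.85 on day 20, and that of the 21 cytosolic members -0.12, -0.77 and -0.17.

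Within the synapse fraction, day 6 was then set against days 1 and 20. All 11 membrane-spanning members were higher on day 6, all 3 tail-anchored members were lower, and of the cytosolic members 13 were lower, Rims2 was higher (lower with library totals) and 7 were not called. Over all genes 22.6% were higher and 22.5% lower. The largest differences were 2.29 ± 0.18 for Slc17a6, 2.09 ± 0.09 for Syt4, 2.07 ± 0.10 for Sv2b and 1.99 ± 0.07 for Syt1, and the smallest of the 11 were 0.69 ± 0.08 for Slc17a7 and 0.68 ± 0.09 for Syt7. Syt4 had 302 and 262 scaled CPM on day 1 and 301 and 286 on day 20, against 1343 and 1113 on day 6, so that the days did not overlap. Slc17a6 had 31.4, 28.7, 39.5 and 30.6 on days 1 and 20, near its homogenate levels, and 175 and 144 on day 6. Both day 6 libraries lay above the other 4 in 14 members and below them in 19, where 28% and 29.4% of all genes did so. Stx1a fell by 0.73 ± 0.18, Vamp1 by 0.59 ± 0.10 and Vamp2 by 0.40 ± 0.09. The lowest cytosolic values were -1.07 ± 0.12 for Bsn, -1.07 ± 0.15 for Rab3a, -1.04 ± 0.09 for Dnm1 and -1.01 ± 0.09 for Syn1. With library totals the split over all genes went from 3111 higher and 3104 lower to 1692 and 6535 and that of the members from 12 and 16 to 8 and 23, Rims2 turned to -0.15, and Syngr3, Slc17a7 and Syt7 were no longer called.

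Between days 1 and 20 no member was called, and edgeR called 0 of 13766 genes (0%). At an unadjusted p under 0.05 stood 34 genes (0.247%), none of them a member (44 genes with DESeq2 and 24 with limma-voom). Without the day 6 synapse libraries it was 139 genes, again without a member. The members' differences ran from -0.10 for Rims2 to 0.21 for Slc17a6. In single libraries, the gap between the membrane-spanning and the cytosolic median, each relative to the homogenates, was 1.03 (C) and 0.82 (L) on day 1, 3.28 and 3.02 on day 6, and 1.03 and 0.86 on day 20. In the 6 homogenates it ran from -0.10 to 0.08, with an SD of 0.08. On each of the 3 days the C library had the wider gap.

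The share of each gene in 9 pairs of related genes was compared by range, without a test. In 2 pairs it lay apart from the homogenates on day 6 and on days 1 and 20, in 6 pairs in 1 of these sets only, and in 1 pair in neither. Bsn made up 55.8% to 58.8% of the counts of Bsn and Pclo in the synapse libraries of days 1 and 20, 33.9% and 36.8% in those of day 6, and 33.3% to 39.6% in the homogenates, so that only days 1 and 20 stood apart. Syt4 made up 19.4% to 20.2% of the counts of Syt4 and Syt11 on days 1 and 20, 29.2% and 26.9% on day 6, and 24.6% to 31.1% in the homogenates. Syn1 made up 42.5% to 47.1% of the counts of the synapsins Syn1 and Syn2 in the 6 synapse libraries and 35.7% to 41.6% in the homogenates, without overlap. Vamp1 made up 7.57% to 9.21% of the counts of Vamp1 and Vamp2 in the synapse libraries and 10.2% to 12.5% in the homogenates, again without overlap. Other pairs overlapped the homogenates. Cplx1 made up 19.3% to 21.4% of the counts of Cplx1 and Cplx2 on days 1 and 20 and 15.1% and 17.8% on day 6, against 17.8% to 23.04%. Sv2a made up 32.9% and 33.4% of the counts of Sv2a and Sv2b on day 6, inside the range of 28.5% to 37.4%, and 39.3% to 40.7% on days 1 and 20. Syngr3 with Syngr1 and Rims1 with Rims2 likewise overlapped on day 6 and lay above on days 1 and 20, at 26.02% to 28.9% against 17.8% to 23.99% and at 69.9% to 72.7% against 63.7% to 69.4%.

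The arms C and L were compared with replicates in the homogenates only. No member was called, and the differences were small beside the spread: 32 of the 35 lay between -0.20 and 0.20. The background was as empty, since edgeR called 0 of 13647 genes (0%) at an adjusted p under 0.05 and 1217 (8.92%) at an unadjusted p under 0.05, DESeq2 called 13 genes and limma-voom none. Slc17a6 had 31.2, 31.1 and 30.9 scaled CPM in C and 14.0, 23.8 and 25.4 in L. All 3 L values lay below the 3 C values, and the difference of -0.56 ± 0.19 was the only one of the 35 at an unadjusted p under 0.05, with an edgeR adjusted p of 0.515. The column headers give C and L libraries of the same number a shared code, and with that number as a block 5 members stood at an unadjusted p under 0.05 in edgeR (Syngr3, Sv2b, Slc17a6, Cplx2 and Amph) and none was called. Without the library C2 it was 5 members (1645 of all genes), and without L2 it was 4 (1757 of all genes). The lowest value of Slc17a6 came from the library L1, which also held 1458 scaled CPM of Alb, a transcript of liver that was at 0 in the other 5 homogenates. Without L1, Slc17a6 was again the only member at an unadjusted p under 0.05. Syt1, Rims2, Syn2 and Amph were also lower in all 3 L libraries and Syn1 was higher in all 3, which is 5 lower of 35 with Slc17a6 and 1 higher, where 8.22% and 7.36% of all genes did so.

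In the synapse fraction 1 library of each arm stood on each day, so there is no test within a day. Of the 34 members with at least 10 CPM none differed by 2-fold or more between L and C on any day, where 0.0428% of all genes were that much higher and 0.118% lower on day 1, 4.74% and 4.42% on day 6, and 0.0215% and 0.0322% on day 20. The membrane-spanning members were slightly lower in L: 11 of 11 on day 1 (median -0.21), 10 of 11 on day 6 (median -0.14) and 11 of 11 on day 20 (median -0.07). Of the 20 cytosolic members 10, 11 and 11 were lower. Over all genes it was 4869 of 9351 (median -0.01), 5046 of 9119 (median -0.06) and 4560 of 9321 (median 0.00). With library totals this was 11, 7 and 11 of 11, so the direction on day 6 rests on the scaling for 3 of them. Syt1 had 28568 (C) and 22689 (L) counts on day 1, 89961 and 64359 on day 6, and 25369 and 20952 on day 20. Its log2 ratios were -0.18 (95% interval -0.20 to -0.15), -0.22 (-0.23 to -0.20) and -0.16 (-0.19 to -0.14), with exact intervals for counting error only. Erc2 was higher in L on each day, by 0.11, 0.33 and 0.19, and Rph3a was lower by 0.26, 0.51 and 0.01. The widest ratios were -0.52 for Dnajc5, -0.51 for Rph3a and -0.48 for Napb, all on day 6.

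**Figure D5:**
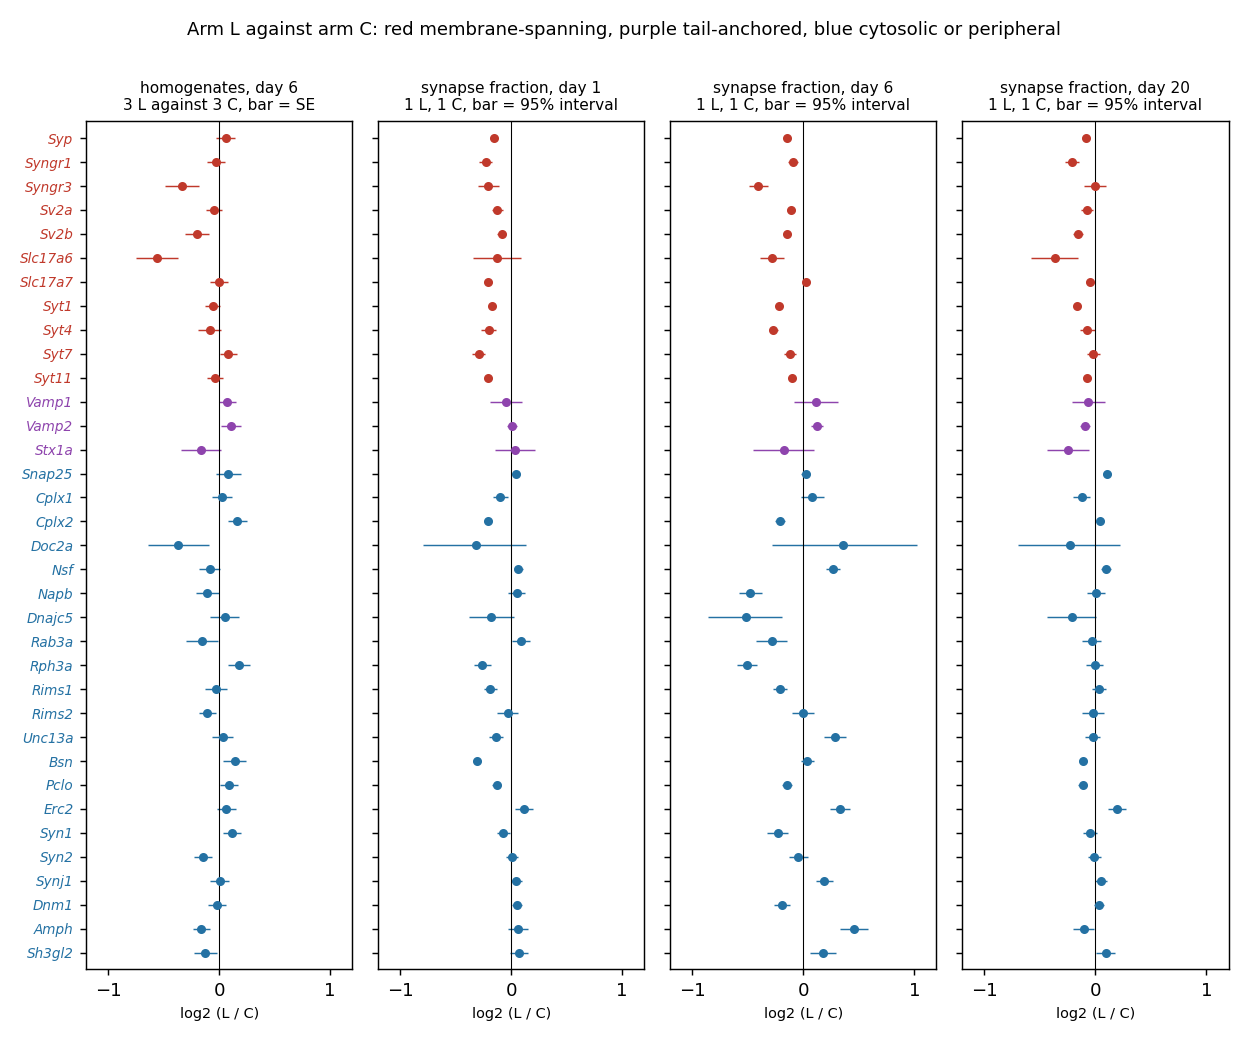
Log2 ratio of arm L to arm C (x axis) for the 35 genes in rows, in the homogenates (3 libraries of each arm, bars are SE) and in the synapse libraries of days 1, 6 and 20 (1 library of each arm, bars are 95% intervals for counting error). No member is 2-fold apart on any day. With the TMM scaling plotted, the membrane-spanning members in red lie at or left of 0 in the synapse panels except Slc17a7 on day 6, and with library totals 7 of 11 do so on day 6.

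Over the 3 days taken as replicates, with day as a block, no member was called and edgeR called 0 of 13071 genes (0%), with 226 (1.73%) at an unadjusted p under 0.05 (250 with DESeq2 and 425 with limma-voom). Of those genes 5 were members: Syngr1 at -0.18 ± 0.06, Slc17a6 at -0.26 ± 0.11, Syt1 at -0.19 ± 0.06, Syt4 at -0.19 ± 0.07 and Erc2 at 0.21 ± 0.08 (edgeR adjusted p = 0.905 for each). That count of members fell to 0 without the C library of day 1 and to 1, Syt1, without its L library. It was 5 without any one of the other 4. In these fits the count over all genes rose from 226 to between 573 and 790. The count of members was 8 with DESeq2, 11 with limma-voom and 3 with library totals (168 of all genes). The median of the membrane-spanning members was -0.15 and that of the cytosolic -0.05. For all genes the deposited tables annotate as integral to membrane it was -0.08, and for the others 0.01. L lay below C on all 3 days in 15 of 34 members, where 16.4% of all genes did, and above in 5, where 12.7% did. With library totals the 15 became 11. Whether the arm difference itself differed between the fractions was tested as an interaction. No member passed, and edgeR called 0 of 13766 genes (0%), with 714 (5.19%) at an unadjusted p under 0.05 (837 with DESeq2 and 744 with limma-voom), among them Rph3a at -0.43 ± 0.16 and Cplx2 at -0.28 ± 0.12.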

How the data were processed

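The authors deposited raw read counts per gene in 4 tables, 1 for the synapse pair of each day and 1 for the 6 homogenates. Reads were handled with HISAT2 2.0.4, cutadapt 1.9.3, edgeR and HTSeq 0.9.1 on mm10, per the submitters' processing notes, and the libraries were directional, per the labels' protocols. The sources used here do not give annotation, counting strand or gene filter, so a gene and an overlapping antisense partner cannot be separated.

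Counts were fitted in edgeR 4.0.16 with its quasi-likelihood test (TMM, filterByExpr, robust) in R 4.3.3. Fractions and days were fitted over the 14360 genes common to the tables with arm as an additive term. All 12 libraries shared 1 estimate of spread, so each synapse day was assumed to vary like the rest. The L to C ratios of all genes did not bear this out. Their median absolute deviation on the log2 scale was 0.297 on day 6, against 0.112 on day 1 and 0.108 on day 20. The SEs of day 6 may thus be too small, and the test of day 20 over day 1 too strict. Arms were fitted in the 6 homogenates, in the 6 synapse libraries with day as a block, and as an interaction. The SE is the log2 difference divided by the square root of the F statistic. Ratios within a synapse pair used a prior count of 2, a mean of at least 10 CPM and exact 95% Clopper-Pearson intervals. The fits were tried on simulated counts with 2-fold changes and the same spread in all libraries. That does not show how well they find smaller differences, such as those between the arms. Coordinates, exonic lengths and coding sequences are those of GENCODE M21, matched by gene identifier for 35 of 35.

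The 35 genes, the classes and the other lists were chosen with earlier results of these data known. All 35 could be named, and of the other vesicle genes the 3 highest and 3 lowest called in a comparison. Alternatives were other scalings, no filter, DESeq2 1.42.0, limma-voom (limma 3.58.1), genes of any table, libraries left out, and other classes. The classes by coding sequence and by annotation term, and the fits without the day 6 synapse libraries, were chosen after seeing the data. Protein sequences were not used here.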

Additional observations from a re-analysis of the deposited data

Results flagged for a closer look

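For 3 members the synapse fraction differed from the homogenates in opposite directions on day 6 and on another day. The difference between the days was itself called, and all 3 are cytosolic. The share of all genes that did so was not counted, so the number says nothing particular about the members or their class. Bsn was higher than in the homogenates on days 1 and 20 and lower on day 6, and day 6 against days 1 and 20 gave -1.07 ± 0.12 (edgeR adjusted p = 6.92e-06). Its day 6 call was lost with DESeq2 (adjusted p = 0.0530). Cplx1 went the same way, at -0.66 ± 0.10 (edgeR adjusted p = 7.97e-05). Syn1 was higher on day 1, by 0.25, and lower on day 6, by 0.78, at -1.01 ± 0.09 (edgeR adjusted p = 1.18e-06). With library totals in place of TMM, Cplx1 and Syn1 were no longer called higher on day 1, at 0.19 and 0.04. Day 6 has its own table and column naming in the synapse fraction, so day and table cannot be told apart.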

How the results depend on the processing

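No call of a member was lost under limma-voom, without the filter, without the arm term, in the 8 day 6 libraries alone or, for days 1 and 20, without the day 6 synapse libraries, and these settings added 5, 1, 1, 1 and 5 calls in that order. Over the 104 called differences between fractions or days, library totals ended 18 calls and reversed 3, which were Rims1 on day 6 (-0.16), Rims2 on day 6 (-0.35) and Rims2 on day 6 over days 1 and 20 (-0.15), and they added 24 calls, all of them lower. The size factors of DESeq2 ended 2 calls and added 3, its own test ended 1 and added 5, and 1 call ended when genes absent from a table were added with a count of 0. Leaving out 1 library ended 59 of 1248, reversed none and added 24. The members called then ran from 27 to 30 on day 6, from 27 to 29 for day 6 over days 1 and 20, from 14 to 26 on day 1 and from 15 to 26 on day 20, and stayed at 0 for days 20 over 1 and in all 3 arm comparisons.

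The day 6 gap of 3.21 between the membrane-spanning and cytosolic medians ran from 3.06 to 3.28 without 1 library. It was 3.09 with the tail-anchored members among the membrane-spanning, 2.65 in the other vesicle genes, 3.12 in members classed by coding sequence (at either 1.6 or 2.0), 2.99 by the annotation term, 1.48 in all genes by coding sequence and 1.68 in all genes by the term.

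The homogenate replicate numbers were also used as a block. In that fit with the replicate block 0 members were called, 1 of 13647 genes was called lower, and 1639 genes, 5 of them members, were at an unadjusted p under 0.05 in place of 1217, 1 of them a member. Same-numbered C and L libraries had correlations of deviations of 0.01, 0.25 and 0.18. They are not shown to be pairs, and library C1 correlated best with L3.

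Depth limits Doc2a most, with 40 to 98 counts per synapse library. Fraction, table and, outside day 6, day cannot be told apart.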
